A study of Mus musculus with 35 samples.

Results

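Activity-dependent immediate early genes are the transcripts that neurons make within minutes of synaptic input, before any new protein is needed. The 10 described here were the rows Fos, Fosb, Junb, Egr1, Egr2, Egr4, Npas4, Nr4a1, Arc and Homer1 among the 22099 genes of the striatal RNA sequencing (RNAseq) table, chosen by name, and all 10 passed the filter on low counts that 17639 genes passed. The table held 35 female C57BL6/J mice of 2 genotypes. Htt+/+ mice carried only wild-type huntingtin, and their HttQ111/+ littermates, a knock-in model of Huntington's disease (HD), carried 1 allele with an expanded CAG tract in the mouse's own Htt gene, so the mutant protein was made wherever Htt is expressed. Mice of each genotype received saline (6 Htt+/+, 6 HttQ111/+), an off-target control antisense oligonucleotide (control ASO; 5 and 6) or an ASO against both Htt alleles (Htt ASO; 6 and 6), injected intraperitoneally every week from 2 to 10 months of age, the ASOs at 50 mg/kg and the saline at 4 µL/g. At 299 to 304 days of age the mice were perfused with saline and 1 hemistriatum per mouse was frozen. It was the right, except for the left of Htt+/+ Htt ASO mouse 6. The labels name no stimulus meant to induce these genes, and the levels are those present when the mice were killed. The paper states that a lethal intraperitoneal dose of pentobarbital and a cardiac puncture came before the perfusion. Their effect on these genes was not measured.

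In a resting neuron immediate early genes are held at a low level with their machinery in place. Calcium entry through glutamate receptors and L-type channels, and in striatal projection neurons dopamine acting through the D1 receptor and cAMP, activate kinases that phosphorylate CREB and the SRF partners of the ternary complex family at promoters and enhancers, and transcripts appear and decay within about an hour. Fos, Fosb and Junb encode parts of the AP-1 dimer. Egr1, Egr2 and Egr4 encode zinc finger factors of 1 family. Npas4 encodes a bHLH-PAS factor that depends closely on calcium, and Nr4a1 an orphan nuclear receptor. Arc and Homer1 encode synaptic proteins: Arc takes part in the removal of AMPA receptors, and Homer1 in the scaffold that ties metabotropic glutamate receptors to Shank. Homer1 has long forms made constitutively and a short form induced by activity, and the values here were summed over forms of each gene, so the forms cannot be told apart.

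Sequence upstream of these genes was taken from RefSeq (GRCm38.p6, the outermost annotated start of each gene), which held 8 of the 10 members; Arc and Egr1 were not matched. The 250 bases before the start were searched on both strands for TGACG, the core of the cAMP response element (CRE) bound by CREB-family factors. Of the 8, 7 held it, against 17.8% of 27025 mouse promoters of the same length. The member promoters were 58.4% to 74.4% G or C, against a median of 52% over all promoters, and the share was not matched for base composition. Nr4a1 held 4 copies, Homer1 3, Fos, Egr4 and Npas4 2 each, Fosb and Junb 1 each, and Egr2 none. The full palindrome TGACGTCA, which contains the core on both strands, was in none of the 8 windows and in 1.6% of all promoters. The CArG box of SRF (1.41% of all promoters), the AP-1 site TGACTCA or TGAGTCA (4.43%) and the NR4A element AAAGGTCA (1.31%) were likewise in none of the 8. Sequence farther upstream, after the start or at other annotated starts was not searched, so an absence holds for these windows only. The windows of Fos (chr12:85473640-85473889, plus strand), Nr4a1 (chr15:101266596-101266845, plus strand), Homer1 (chr13:93303507-93303756, plus strand) and Egr2 (chr10:67535249-67535498, plus strand) are shown from 5′ to 3′, because they include the member that all others were compared with, those with the most cores, and the member with the largest genotype difference, which had none. Capitals mark TGACG or, where the core lay on the other strand, CGTCA.
Fos: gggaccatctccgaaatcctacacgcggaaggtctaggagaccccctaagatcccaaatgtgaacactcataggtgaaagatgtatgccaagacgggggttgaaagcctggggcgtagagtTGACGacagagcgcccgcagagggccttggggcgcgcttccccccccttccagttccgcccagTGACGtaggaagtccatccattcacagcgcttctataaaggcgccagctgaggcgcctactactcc
Nr4a1: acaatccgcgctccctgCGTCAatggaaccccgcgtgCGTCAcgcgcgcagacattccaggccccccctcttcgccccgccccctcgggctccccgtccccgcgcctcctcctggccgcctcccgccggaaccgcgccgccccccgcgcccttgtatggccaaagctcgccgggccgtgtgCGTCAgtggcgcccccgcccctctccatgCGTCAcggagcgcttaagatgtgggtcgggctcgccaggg
Homer1: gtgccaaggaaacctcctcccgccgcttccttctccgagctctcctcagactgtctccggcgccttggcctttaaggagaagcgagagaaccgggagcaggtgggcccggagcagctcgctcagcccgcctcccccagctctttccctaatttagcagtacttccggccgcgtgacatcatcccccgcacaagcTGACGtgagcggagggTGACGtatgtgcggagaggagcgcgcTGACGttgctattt
Egr2: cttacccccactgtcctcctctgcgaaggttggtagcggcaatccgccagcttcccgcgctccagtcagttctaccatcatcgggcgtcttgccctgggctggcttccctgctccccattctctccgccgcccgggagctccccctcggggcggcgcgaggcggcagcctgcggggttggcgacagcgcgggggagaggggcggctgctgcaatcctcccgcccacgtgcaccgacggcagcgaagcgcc
In Homer1 all 3 cores lay on the coding strand, the nearest 9 bases before the start, whereas in Nr4a1 all 4 lay on the other strand. These matches describe letters, and binding was not measured.

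Library totals ran from 32200158 to 38641924 expected counts. Levels are given as counts per 1000000 (CPM) on trimmed-mean library sizes. Of 12 striatal projection neuron markers none was at 0 throughout, with a summed level of 7719 to 9030 CPM in Htt+/+ and 5215 to 6227 CPM in HttQ111/+ mice, and 10 of the 12 were lower in HttQ111/+ mice, 1 higher. The members are made by several cell types, and in bulk tissue fewer cells of a type and less RNA per cell cannot be told apart. Among the other lists were 12 cortical excitatory neuron markers, for a neighbouring tissue rich in immediate early genes. Together they summed to 249 to 324 CPM in Htt+/+ and 254 to 331 CPM in HttQ111/+ mice. Lamp5 (listed as 6330527O06Rik) and Mal2 were the largest parts, averaging 109 and 124 CPM in Htt+/+ mice. Slc17a7 varied far more between mice: its mean was 18.0 CPM in Htt+/+ mice, where the SD was 12.2. For HttQ111/+ mice the mean was 15.3 and the SD 12.5, so the narrow range of the sum does not show even cortical carry-over. Of the 11 cortical markers tested, 2 were lower and 2 higher in HttQ111/+ mice. Lower in HttQ111/+ mice were 4 of 8 astrocyte, 4 of 8 oligodendrocyte, 5 of 8 microglial and 6 of 7 endothelial markers, and no choroid plexus (6) or blood (3) marker was called; their part in the member differences was not tested. A single Htt+/+ mouse reached 1603 CPM of choroid plexus markers against a genotype median of 70.6. Htt itself (listed as Hdh) was at 75.3 ± 8.37 CPM (SD, n = 18) in the HttQ111/+ striatum, where Htt+/+ mice had 88.3 ± 10.7 CPM (SD, n = 17).

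To ask whether the HD mutation altered these genes, genotypes were compared across the 3 treatments with limma-voom. Of the 10 members, 5 were lower in HttQ111/+ mice (Egr2, Homer1, Egr1, Egr4 and Junb) and none was higher at an adjusted p of 0.05, where 18.0% of all genes tested were called lower and 21.8% higher. With library totals in place of trimmed-mean sizes, which moved the median of all genes from 0.0037 to 0.043 on the log2 scale, the lower share of all calls was 27.9% in place of 45.3%, and 4 members were called (all but Junb). The median log2 fold change of the 10 members was -0.29, against 0.0037 over all genes, and 8 of the 10 were below 0, as were 48.8% of all genes.

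**Figure D1:**
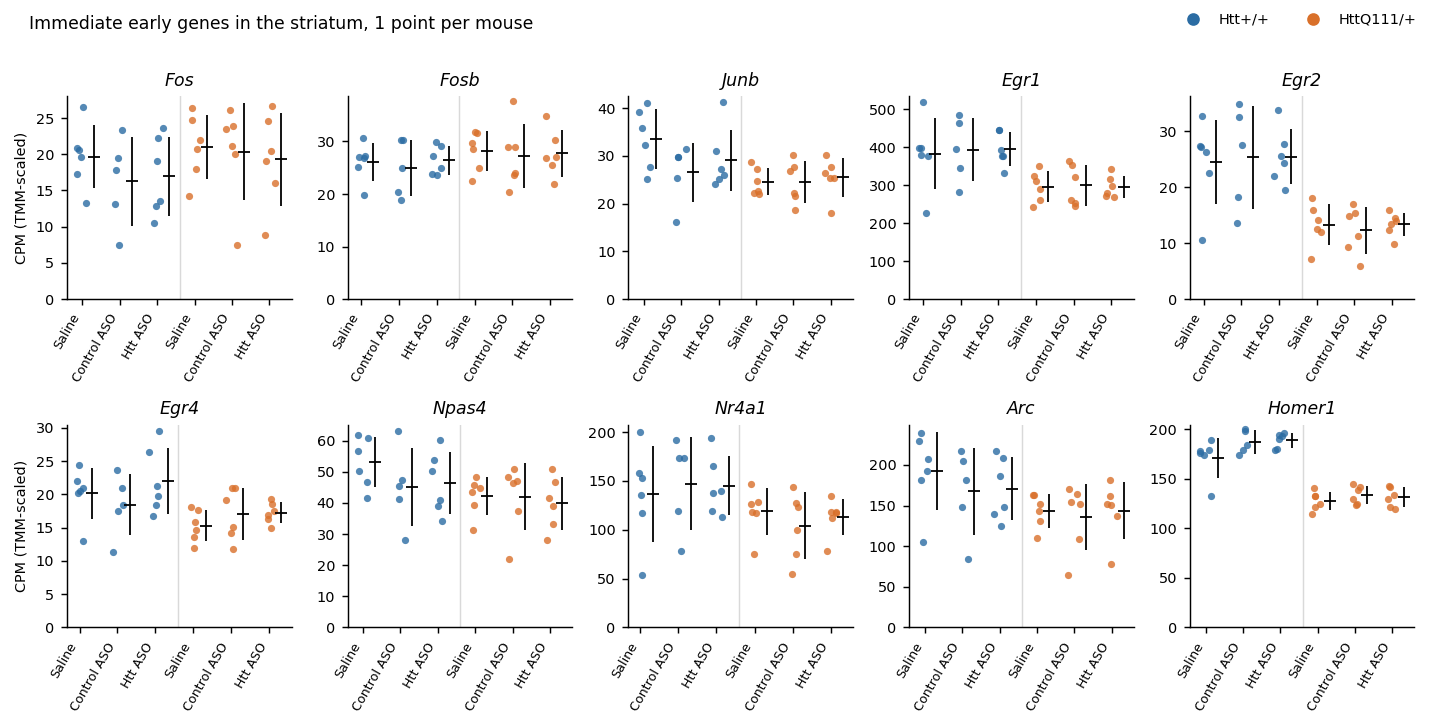
Level of each of the 10 genes in each mouse, in CPM on trimmed-mean library sizes (vertical axes start at 0), by genotype (blue Htt+/+, orange HttQ111/+) and treatment, 5 or 6 mice a group; bars show the mean and SD. Homer1 and Egr2 lie lower in all 3 HttQ111/+ groups, whereas Fos and Fosb overlap throughout.

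The AP-1 genes did not move as a group. Fos, the dimer partner most used as a marker of neuronal activity, ranged from 7.42 to 26.5 CPM (median 19.1) in Htt+/+ and from 7.44 to 26.7 CPM (median 20.9) in HttQ111/+ mice. The ranges coincided, and the log2 difference, 0.20 ± 0.16 (SE), had a 95% confidence interval of -0.13 to 0.53 (limma-voom, adjusted p = 0.352). Fosb, whose stable truncated product accumulates in the striatum under repeated stimulation, ranged from 18.8 to 30.7 CPM (median 26.9) and from 20.4 to 37.7 CPM (median 27.8), with a log2 difference of 0.10 ± 0.077 (SE; limma-voom, adjusted p = 0.304). Neither gene differed beyond its spread, and the intervals allow levels of 91.2% to 144.9% of the Htt+/+ level for Fos and of 96.4% to 119.6% for Fosb. Junb, a partner of both and a weaker activator than Jun, ranged from 16.2 to 41.2 CPM (median 29.7) in Htt+/+ and from 18.0 to 30.1 CPM (median 25.4) in HttQ111/+ mice. The lowest values were alike, and it was the upper part of the Htt+/+ range, 7 of 17 mice above every HttQ111/+ mouse, that was not reached. Its level in HttQ111/+ mice was 85.1% of that in Htt+/+ mice (limma-voom, adjusted p = 0.0351), a call lost when any of 10 of the 35 mice was left out by itself and with a term for sequencing lane (adjusted p = 0.0827).

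All 3 EGR genes were lower. Egr2, a zinc finger factor that in brain follows neuronal activity and in peripheral nerve controls myelination, had the largest difference of the 10. With saline it ranged from 10.5 to 32.7 CPM (median 26.8) in Htt+/+ and from 7.24 to 18.0 CPM (median 13.3) in HttQ111/+ mice. With control ASO the 5 Htt+/+ mice had 13.5, 32.6, 34.8, 18.2 and 27.6 CPM, and the 6 HttQ111/+ mice ran from 5.83 to 17.0 CPM (median 13.1). With Htt ASO the ranges were 19.4 to 33.7 CPM (median 25.0) and 9.91 to 16.0 CPM (median 13.7). All 18 HttQ111/+ mice lay below the Htt+/+ median, the Htt ASO groups did not overlap, and 2 of 17 Htt+/+ mice fell within the HttQ111/+ range. From the other side, 14 of 18 HttQ111/+ mice were at or above the lowest Htt+/+ mouse. Egr2 in HttQ111/+ striatum was 52.4% of its Htt+/+ level (95% confidence interval 42.3% to 64.9%; log2 fold change -0.93 ± 0.15, SE; limma-voom, adjusted p = 6.66e-06).

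Egr1 (also Zif268), which is needed for lasting synaptic potentiation, ranged from 228 to 520 CPM (median 393) in Htt+/+ and from 243 to 365 CPM (median 294) in HttQ111/+ mice. All 18 HttQ111/+ mice lay under the Htt+/+ median and 13 of 17 Htt+/+ mice above the highest HttQ111/+ mouse. The other 4 Htt+/+ mice overlapped with them, and all 18 HttQ111/+ mice were above the lowest Htt+/+ mouse. The level was 76.8% of that in Htt+/+ mice (log2 fold change -0.38 ± 0.082, SE; limma-voom, adjusted p = 0.000293). Egr4, a less studied member that resembles the others in its zinc fingers, ranged from 11.4 to 29.6 CPM (median 20.5) and from 11.8 to 21.0 CPM (median 16.6). Here 11 of 17 Htt+/+ mice lay within the HttQ111/+ range, and the level was 83.0% (limma-voom, adjusted p = 0.0238), a call lost with a lane term (adjusted p = 0.114). Egr3, which is not among the 10 and is named here after its values were seen, was lower as well (log2 fold change -0.32 ± 0.057, SE; limma-voom, adjusted p = 3.09e-05).

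Npas4 and Nr4a1 were lower on average without passing the test. Npas4 ranged from 28.0 to 63.1 CPM (median 47.4) in Htt+/+ and from 21.9 to 51.1 CPM (median 44.0) in HttQ111/+ mice, at 86.2% (95% confidence interval 74.2% to 100%; limma-voom, adjusted p = 0.106). Nr4a1 (Nur77), which is abundant in striatal projection neurons and responds to dopamine, ranged from 53.6 to 200.2 CPM (median 139.8) and from 54.2 to 147 CPM (median 118), at 79.9% (95% confidence interval 65.1% to 98.0%; limma-voom, adjusted p = 0.0746). The lowest mice of the genotypes were close to each other, and 8 of 17 Htt+/+ mice lay above all HttQ111/+ mice. Nr4a1 passed with edgeR (adjusted p = 0.0384), DESeq2 (0.0387) and sample quality weights (0.0385), and its adjusted p was highest, at 0.319, with a lane term.

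The effector genes differed in how firmly they were lower. Homer1 had the smallest spread and the smallest p of the 10. With saline it ranged from 132 to 190 CPM (median 177) in Htt+/+ and from 115 to 140 CPM (median 129) in HttQ111/+ mice. With control ASO the 5 Htt+/+ mice had 179, 198, 200.3, 184 and 174 CPM, and the HttQ111/+ mice 123 to 145 CPM (median 134). With Htt ASO the ranges were 179 to 196 CPM (median 192) and 120 to 143 CPM (median 132). Under both ASOs the genotypes did not overlap at all. With saline 1 Htt+/+ mouse lay within the HttQ111/+ range, and 3 of 6 HttQ111/+ mice were above that mouse. Homer1 in HttQ111/+ mice was 71.9% of its Htt+/+ level (95% confidence interval 68.3% to 75.8%; log2 fold change -0.48 ± 0.037, SE; limma-voom, adjusted p = 1.60e-12). Arc ranged from 84.1 to 239.7 CPM (median 187) in Htt+/+ and from 65.0 to 182 CPM (median 152) in HttQ111/+ mice, at 80.3% (log2 fold change -0.32 ± 0.14, SE; limma-voom, adjusted p = 0.0610). All 18 HttQ111/+ mice lay under the Htt+/+ median for Arc although the test was missed. It was passed with edgeR (adjusted p = 0.0400), DESeq2 (0.0405) and sample quality weights (0.0383). Apart from fits without single mice, the adjusted p over the alternatives run was at most 0.194. The lowest, 3.53e-08 by limma-voom, came with Fos as a covariate, an alternative added later that compares Arc relative to Fos.

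**Figure D2:**
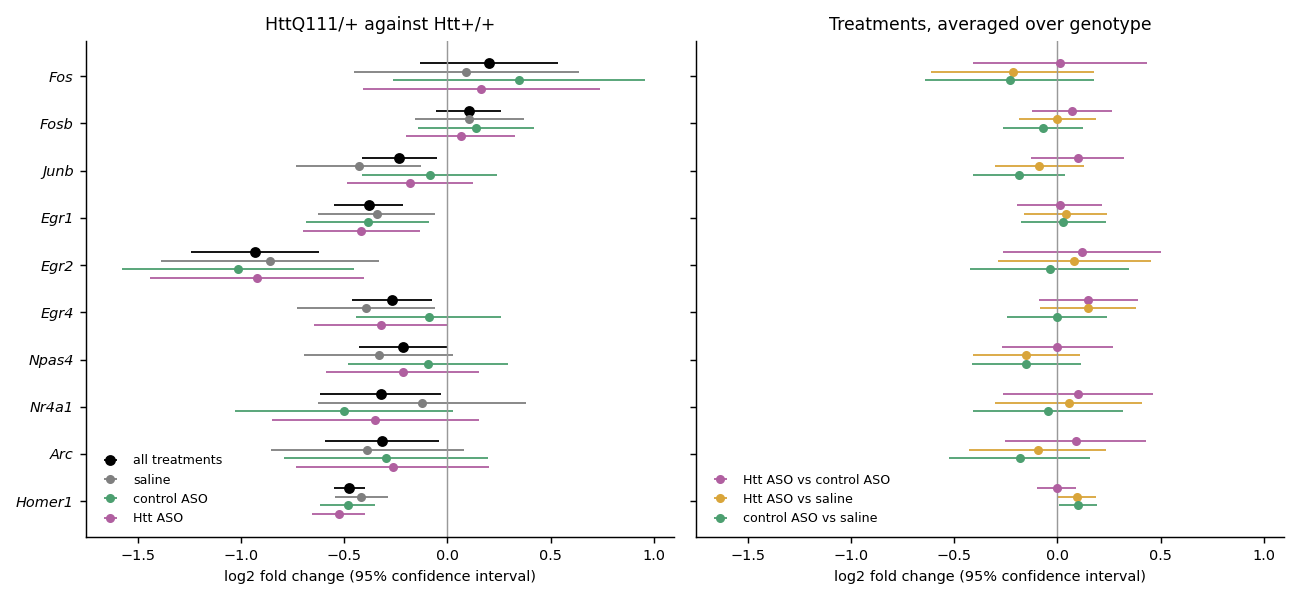
Log2 fold change with its 95% confidence interval for each gene, for HttQ111/+ against Htt+/+ mice over all treatments and within each (left), and between treatments averaged over genotype (right). On the left the intervals of Egr1, Egr2 and Homer1 stay below 0 in all 4 comparisons, and on the right all but 2 intervals, both of Homer1, include 0.

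A permutation test of each gene by itself, with genotype shuffled 100000 times within treatments (two-sided), gave p = 1e-05 for Homer1, the smallest it can give, 2e-05 for Egr2, 0.00017 for Egr1, 0.0117 for Egr4, 0.0184 for Junb, 0.0342 for Arc, 0.0444 for Nr4a1, 0.0629 for Npas4, 0.22 for Fosb and 0.275 for Fos, none adjusted for the number of genes. Titles of the samples carried a number after the letter L, read here as the sequencing lane though the labels do not say so, and 1 of the 6 lanes held 6 HttQ111/+ mice only. Within the other 5 lanes, Egr1, Egr2, Homer1 and Arc were lower in HttQ111/+ mice in all 5, with log2 differences of -1.39 to -0.52 for Egr2, -0.64 to -0.14 for Egr1, -0.61 to -0.28 for Homer1 and -0.80 to -0.032 for Arc. Egr4 and Npas4 were lower in 4 of the 5, Junb and Nr4a1 in 3, Fosb in 2 and Fos in 1. With lane as a term, or without that lane, 3 members were called (Egr1, Egr2 and Homer1). Of all genes, 2877 of 17639 and 2630 of 17771 were called lower in these fits. Without Htt+/+ control ASO mouse 1, 8 members were called, and without Htt+/+ saline mouse 3, 7. Of all genes, 3101 of 17709 and 3198 of 17625 were then called lower.

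Within treatments each comparison rested on 5 or 6 mice a group. With saline, 3 members were lower, Homer1 (log2 fold change -0.42; limma-voom, adjusted p = 8.58e-06), Egr2 (-0.86; adjusted p = 0.0177) and Junb (-0.43; adjusted p = 0.0403), where 8.78% of all genes were. With control ASO 2 were lower, Homer1 (-0.48; limma-voom, adjusted p = 1.88e-06) and Egr2 (-1.01; adjusted p = 0.00864), against 8.46% of all genes. With Htt ASO 3 were lower, Homer1 (-0.53; limma-voom, adjusted p = 1.04e-07), Egr2 (-0.92; adjusted p = 0.00810) and Egr1 (-0.42; adjusted p = 0.0298), against 10.2% of all genes. Egr1 was thus called in 1 treatment, but its difference was of like size in all 3 (-0.34, -0.39 and -0.42), and an interaction of genotype with treatment was not shown for any member (smallest limma-voom unadjusted p = 0.273, for Junb; adjusted p 0.878 to 0.987 over the 10). The saline count moved most with single mice: it was 5 without Htt+/+ saline mouse 3 and 1 without HttQ111/+ saline mouse 4. The share of all genes called with saline was not counted in those fits.

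Whether the ASOs altered these genes was asked by averaging over genotype. The paper reported that Htt ASO lowered huntingtin protein in liver and adipose tissue and had no effect on it in the striatum. Striatal Htt RNA averaged 90.2, 89.7 and 85.3 CPM in Htt+/+ mice with saline, control ASO and Htt ASO. In HttQ111/+ mice the averages were 79.2, 75.2 and 71.6 CPM in the same order. Group SDs ran from 7.74 to 13.0 CPM, and no test of these Htt differences is given. No member was called by limma-voom between Htt ASO and control ASO, where 0.935% of all genes were, or between Htt ASO and saline, where 1.47% were, or between control ASO and saline, where no gene was. edgeR and DESeq2 called none of the 10 in these comparisons either. At an unadjusted p under 0.05 there were 0, 1 and 1 members and 1140, 1652 and 1357 of all genes. The member was Homer1 both times, and these comparisons share the saline mice: its level with Htt ASO was 106.9% of that with saline and with control ASO 107.2%, with Htt ASO at 99.7% of control ASO (95% confidence interval 93.5% to 106.3%). For the other 9 the Htt ASO to control ASO difference lay between -0.000019 (Npas4) and 0.15 (Egr4) on the log2 scale. The precision differed greatly between genes. For Egr2 the interval ran from 83.4% to 142% of the control ASO level and for Fos from 75.4% to 135%, so changes within those limits are not excluded. In comparison with the genotype difference, Egr2 in HttQ111/+ mice averaged 13.3 ± 3.70 CPM (SD, n = 6) with saline, 12.3 ± 4.24 CPM (n = 6) with control ASO and 13.3 ± 2.06 CPM (n = 6) with Htt ASO, against 24.4 ± 7.54 CPM (n = 6), 25.3 ± 9.17 CPM (n = 5) and 25.5 ± 4.96 CPM (n = 6) in Htt+/+ mice.

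Apart from genotype, the members varied strongly from mouse to mouse. The SD of log2 CPM within groups was 0.52 for Fos, larger than that of 93.4% of genes tested, 0.47 for Egr2, 0.46 for Nr4a1, 0.43 for Arc, 0.34 for Npas4, 0.30 for Egr4, 0.28 for Junb, 0.26 for Egr1 and 0.24 for Fosb, where the median gene had 0.119. Homer1, at 0.11, was close to the median gene. This spread was shared between members. After removal of group means, Fos was correlated across the 35 mice with Arc (Pearson's r = 0.92, permutation p = 1e-05; Spearman's rho = 0.83, permutation p = 1e-05) and Npas4 (r = 0.92, permutation p = 1e-05; rho = 0.83, permutation p = 1e-05), where 1e-05 is the smallest p the permutations can give. Both relations were as clear without the 2 mice farthest from the median of Fos (r = 0.88 for each), and in each genotype taken alone (r of 0.90 in Htt+/+ and 0.94 in HttQ111/+ mice for Arc). Weaker relations were found with Egr2 (r = 0.74, rho = 0.58), Junb (0.74, 0.64), Nr4a1 (0.71, 0.58), Fosb (0.59, 0.42), Egr4 (0.53, 0.49) and Egr1 (0.52, 0.47), all with a permutation p of at most 0.02 and an adjusted permutation p of at most 0.022 over the 9 relations, and without the 2 farthest mice their r was 0.48 to 0.69. Homer1 followed Fos least (r = 0.33, permutation p = 0.05; rho = 0.25, permutation p = 0.2). Over the 45 pairs of members r ran from 0.29 (Junb and Homer1) to 0.94 (Egr2 and Nr4a1) with a median of 0.74, and 41 pairs were above 0.5.

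**Figure D3:**
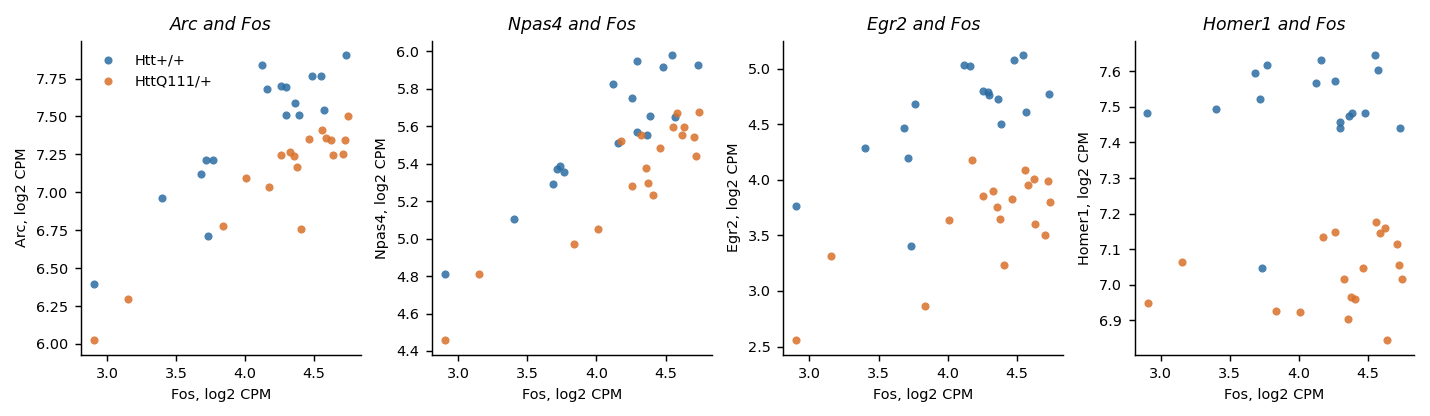
Log2 CPM of Arc, Npas4, Egr2 and Homer1 (vertical axes) against log2 CPM of Fos (horizontal axes) in each of the 35 mice, blue Htt+/+ and orange HttQ111/+. Arc and Npas4 rise with Fos in both genotypes, the HttQ111/+ mice of Egr2 lie below the Htt+/+ mice at the same Fos, and Homer1 splits by genotype with little relation to Fos.

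Some mice were low for most members, and the 5 with the lowest mean deviations are named here. Htt+/+ saline mouse 3 was below its group mean for all 10 (mean deviation -0.65 on the log2 scale), as were Htt+/+ control ASO mouse 1 (-0.65), HttQ111/+ control ASO mouse 2 (-0.63) and HttQ111/+ saline mouse 4 (-0.39), and HttQ111/+ Htt ASO mouse 3 was for 9 (-0.44). The next lowest mouse was at -0.22, and 4 further mice were below their group mean for 9 members. The 5 came from both genotypes and all 3 treatments, with totals of 32850579 to 37867044 expected counts, within the range of the other mice.

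Because the members moved together, each was also compared between genotypes with the log2 CPM of Fos in the same mouse as a covariate, an alternative added after this pattern had been seen. Of the other 9 members, 8 were then lower in HttQ111/+ mice by limma-voom, where 18.6% of all genes were. At the same Fos level, the log2 fold change of Egr2 was -1.08 ± 0.10 (SE; adjusted p = 2.74e-10), of Homer1 -0.49 ± 0.036 (7.94e-13), of Arc -0.47 ± 0.056 (3.53e-08), of Nr4a1 -0.45 ± 0.11 (0.000961), of Egr1 -0.43 ± 0.072 (1.06e-05), of Egr4 -0.34 ± 0.084 (0.00133), of Npas4 -0.33 ± 0.045 (3.69e-07) and of Junb -0.32 ± 0.062 (9.61e-05), each with the SE and the limma-voom adjusted p. Fosb was not (0.049 ± 0.065; limma-voom, adjusted p = 0.581). Arc, Nr4a1 and Npas4, which missed the test without the covariate, passed it here. Fos is itself an outcome measured in the same library, so the values compare members relative to Fos.

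Among the 15089 other genes of at least 1 CPM on average, r with Fos had a median of -0.018 and exceeded 0.5 in 1.83%. Arc ranked 2, Npas4 3, Egr2 6, Junb 7, Nr4a1 10, Fosb 48, Egr4 176, Egr1 192 and Homer1 1843. The non-members most like Fos were Dusp1 (r = 0.92), a phosphatase of MAP kinases, AK006051 (0.90), Btg2 (0.87), an antiproliferative early gene, Snf1lk (0.71), which is Sik1, a kinase that restrains CREB coactivators, and the potassium channel gene Kcnj2 (0.71), followed by Spty2d1, Ccnt1, Zfp334, Rbms1 and Topors (0.65 to 0.70). By genotype, Dusp1 (log2 fold change -0.30; limma-voom, adjusted p = 0.000399), Snf1lk (-0.30; adjusted p = 0.00150) and Rbms1 (-0.11; adjusted p = 0.0126) were lower and Topors was higher (0.086; adjusted p = 0.0108), and the other 6 did not pass.

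Other genes of the response were called in both directions. Of 24 further transcription factors and early regulators, 9 were lower, 3 higher and 12 not called in HttQ111/+ mice (median log2 fold change -0.061). The 3 with the smallest p were Ier5 (-0.32 ± 0.043, SE; limma-voom, adjusted p = 2.74e-07), an early nuclear regulator, the clock gene Per1 (-0.30 ± 0.049; adjusted p = 8.77e-06), and Jun (-0.25 ± 0.043; adjusted p = 1.56e-05), the AP-1 partner of Fos. Of 30 signalling and synaptic effectors, 12 were lower, 5 higher and 13 not called (median -0.12). Pcsk1, a prohormone convertase, was higher (0.71 ± 0.068, SE; limma-voom, adjusted p = 1.87e-10), whereas Spry2, an inhibitor of receptor tyrosine kinase signalling (-0.35 ± 0.039; adjusted p = 5.22e-09), and Plk2, a kinase of homeostatic synaptic scaling (-0.19 ± 0.025; adjusted p = 2.44e-07), were lower. Over both lists 21 of 54 were lower and 8 higher, where 18.0% of all genes were lower and 21.8% higher, with a median of -0.11 against 0.0037 over all genes.

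Genes upstream and around the synapse were also called in both directions. Of 29 upstream regulators, 13 were lower, 4 higher and 12 not called (median -0.077), led by Drd1a, the D1 receptor (-0.49 ± 0.028, SE; limma-voom, adjusted p = 5.86e-16), and Rps6ka4 (-0.54 ± 0.034; adjusted p = 8.98e-15) and Rps6ka5 (-0.46 ± 0.033; adjusted p = 1.91e-13), the MSK kinases that phosphorylate CREB and histone H3. Of 8 Homer and MAGUK partners tested, 5 were lower, 1 higher and 2 not called (median -0.14). The lower genes included Shank3, of the scaffold that Homer1 binds (-0.46 ± 0.047, SE; limma-voom, adjusted p = 8.24e-10) and Grm5, a receptor that binds it (-0.33 ± 0.035; adjusted p = 1.81e-09). The 1 higher gene was Shank2 (0.17 ± 0.026, SE; limma-voom, adjusted p = 3.17e-06), another Shank. Shank2 and the paralogs of Homer1 are named after their values were seen, and the paralogs were at 0.044 ± 0.078 for Homer2 (limma-voom, adjusted p = 0.695) and 0.097 ± 0.040 for Homer3 (adjusted p = 0.0537).

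**Figure D4:**
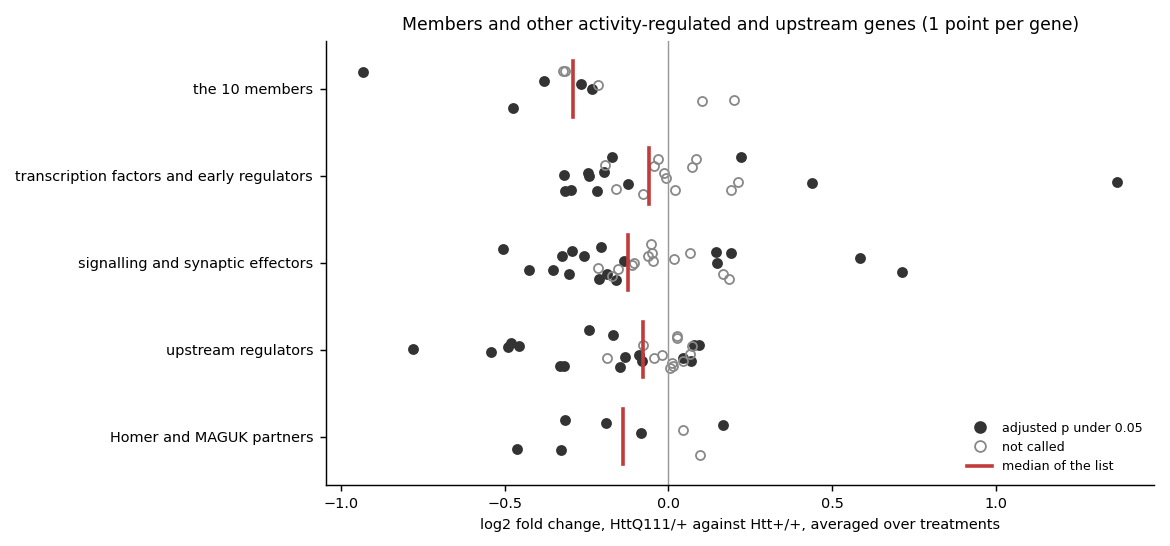
Log2 fold change of HttQ111/+ against Htt+/+ mice, averaged over treatments (horizontal axis), for each of the 10 members and of 4 further gene lists, 1 point per gene; filled points passed an adjusted p of 0.05 and red bars are medians. The lists spread to both sides of 0 with medians from -0.14 to -0.061, and the members have a median of -0.29.

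By treatment, 3 genes of these lists were called, all effectors. Sgk (Sgk1), a kinase induced by glucocorticoids, was lower with Htt ASO than with control ASO (log2 fold change -0.34 ± 0.057, SE; limma-voom, adjusted p = 0.000401) and than with saline (-0.27 ± 0.056; adjusted p = 0.00338). Arl4d, a small GTPase, was lower against both as well (-0.20 ± 0.047; limma-voom, adjusted p = 0.0207, and -0.23 ± 0.046; adjusted p = 0.00207). Rasd1, a Ras-like protein induced by dexamethasone, was lower against saline (-0.42 ± 0.097; limma-voom, adjusted p = 0.0130), and against control ASO it was at -0.34 ± 0.10 (adjusted p = 0.147). Both comparisons share the Htt ASO mice. Of the 7 endothelial markers, 1 was called against control ASO (Tek, -0.57; limma-voom, adjusted p = 1.65e-05) and 3 against saline (Tek, -0.58; adjusted p = 4.56e-06; Cdh5, 0.35; adjusted p = 8.00e-05; Pecam1, 0.20; adjusted p = 0.0451), in both directions, and their part in the effector differences was not tested. No gene of these lists was called between control ASO and saline, where at an unadjusted p under 0.05 there were 1357 of all genes (limma-voom).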

How the data were processed

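Striatal RNAseq of 35 mice was analysed (5 or 6 per group of genotype and treatment). Per the study's methods, stranded paired reads were aligned with Bowtie 0.12.9 to the mouse transcriptome (mm9) and quantified with RSEM 1.1.18. The deposited values were the authors' expected counts per gene, not scaled, of which 55.6% were whole. Groups came from the labels, where the ASO labelled ASO1 was read as the Htt ASO of the protocol. Counts were filtered (filterByExpr, minimum count 10), scaled by trimmed mean of M values (TMM) and fitted with limma-voom (limma 3.58.1, R 4.3.3) as 6 group means, with 29 residual degrees of freedom and Benjamini-Hochberg adjustment over 17639 genes. CPM used TMM sizes, and log2 CPM a prior count of 2. Expected counts were rounded for both alternatives, DESeq2 1.42.0 and edgeR 4.0.16 (quasi-likelihood). Replicates were single mice, and no 2 mice of a group agreed within sampling noise (chi-square of 3.57 to 16.5 for each degree of freedom over 85 pairs). Named genes were the 10 members, the 3 of smallest p in each list with any called by treatment, and the 10 most like Fos; 1 gene that this rule names is not reported here. The members and lists were chosen with earlier results of these data known. The fit was tested on simulated data. Mouse numbers were given in accession order.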

Additional observations from a re-analysis of the deposited data

Results flagged for a closer look

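Of 60 gene and group combinations, 3 held a mouse far below the others of its group by Dixon's test at the 95% level, which chance flags in about 1 of 20 groups. Fos was 7.44 CPM in HttQ111/+ control ASO mouse 2, where the next mouse had 19.99 CPM. Egr4 was 13.0 CPM in Htt+/+ saline mouse 3, next to 20.2 CPM, and Homer1 was 132 CPM in the same mouse, next to 174 CPM. Both mice were below their group means for all 10 genes.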

How the results depend on the processing

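The genotype differences of Egr1, Egr2 and Homer1, averaged over treatments, were past the threshold under each alternative run, at log2 fold changes of -0.43 to -0.34, -1.08 to -0.86 and -0.50 to -0.44. The -1.08 of Egr2 came with Fos as a covariate. The count of members called, 5, was 3 with lane as a covariate and 3 without the lane that held HttQ111/+ mice only. It was 7 with edgeR, DESeq2 or sample quality weights. With Fos as a covariate it was 8 of the other 9, but that fit compares members relative to Fos and is not the same comparison. It was 6 without the mouse whose left hemistriatum was taken, and 4 to 8 when each mouse was left out in turn. Of all genes, 3245 of 17640 were called lower with edgeR, 3380 of 17639 with DESeq2 and 3325 of 17639 with quality weights. With single mice left out, 3091 to 3361 genes were called lower. In saline mice the count of 3 became 1 without that lane, 5 with quality weights and 1 to 5 without single mice. With Htt ASO it became 1 with lane as a covariate and 2 to 3 without single mice, and with control ASO 2 became 2 to 3. The cause of these moves was not tested. All genes called were not counted in these within-treatment fits, so the moves cannot be set against a share of all genes. No treatment comparison or interaction called a member under the alternatives run. Homer1 and Fos had r = -0.0864 without centring on group means. No paired analysis was possible because the labels gave no replicate numbers, and those used here followed accession order. Mouse names shared letters whose meaning is not given, and with these as a random effect (consensus correlation 0.091) 5 members were called by genotype. Of all genes, 3290 of 17639 were called lower in that fit. With 5 or 6 mice a group and within-group SDs of up to 0.52, moderate treatment changes of Fos, Egr2, Nr4a1 or Arc are not excluded. The p-values measure the spread between these mice only.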
